A study of Homo sapiens with 6 samples.

Results

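The monoamine genes examined here are the 10 that encode the synthesis, vesicle loading, reuptake and breakdown of serotonin and the catecholamines: TPH1, TPH2, TH, DDC, DBH, SLC18A1, SLC18A2, SLC6A4, MAOA and MAOB. They were chosen by the fall of SLC18A1 in the same comparison that is described below, and they were found by symbol as 10 of the 28008 genes in the count table. SLC18A1 is therefore given as a description without a test.

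The cells were NCI-H660 (H660), an androgen receptor-negative neuroendocrine prostate cancer (NEPC) line, transduced with a puromycin-selected lentiviral vector that expresses a MUC1 shRNA when doxycycline (DOX) is added. MUC1 encodes a transmembrane mucin whose MUC1-C subunit was the target of the study. Libraries from H660/tet-MUC1shRNA cells given 0.1% DMSO as vehicle (DOX-negative, n = 3) were compared with libraries from the same cells given DOX at 500 ng/ml (DOX-positive, n = 3), to ask which transcripts change when MUC1 is silenced. All 6 libraries carry the vector, a single hairpin was used, and no scrambled hairpin given DOX was analysed here, so an effect of DOX itself and an effect of MUC1 silencing cannot be told apart. Per the study, DOX was given for a week. The labels call the samples triplicate cultures, and p values measure the spread between these libraries.

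Serotonin is made from tryptophan by a tryptophan hydroxylase (TPH1 in the gut and other peripheral tissues, TPH2 in neurons) and then by the decarboxylase DDC. Dopamine is made from tyrosine by TH and DDC, and DBH converts it to noradrenaline. The vesicular monoamine transporters SLC18A1 (VMAT1, typical of endocrine and enterochromaffin cells) and SLC18A2 (VMAT2, typical of neurons and platelets) load amines into acidic vesicles in exchange for protons. SLC6A4 takes released serotonin back into the cell, and MAOA and MAOB oxidise amines in the cytoplasm. Neuroendocrine cells and their tumors are known for the uptake and decarboxylation of amine precursors, the step that DDC carries out.

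DDC was by far the most abundant of the 10 genes, and it lies at chr7:50458442-50565405 on the minus strand (GRCh38.p14). RefSeq lists more than a single start for DDC, and the sequences just upstream of both starts are shown because they are the promoter stretches of the member that dominates the group. Exonic bases were left out, which removed the 52 bases nearest the start from the first window. Capitals mark a forkhead core, TGTTTA, in the window at chr7:50565458-50565655 (minus strand) and a CCAAT box, read as ATTGG on this strand, in the window at chr7:50561072-50561321 (minus strand).
DDC outer start, upstream window: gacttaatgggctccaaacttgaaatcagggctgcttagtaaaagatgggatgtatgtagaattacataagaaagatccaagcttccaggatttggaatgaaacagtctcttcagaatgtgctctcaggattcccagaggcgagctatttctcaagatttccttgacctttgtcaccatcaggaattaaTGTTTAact
DDC inner start, upstream window: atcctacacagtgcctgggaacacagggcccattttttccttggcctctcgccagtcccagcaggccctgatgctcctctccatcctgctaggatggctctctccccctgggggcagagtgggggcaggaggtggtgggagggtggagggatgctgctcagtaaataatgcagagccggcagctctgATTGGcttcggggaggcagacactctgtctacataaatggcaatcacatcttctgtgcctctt
Both strands of each window were searched for the E-box CANNTG (bound by basic helix-loop-helix factors), for the forkhead core TGTTTA, for the TATA box written as TATAAA and for the CCAAT box, and no match overlapped another. The outer window of 198 bases held 1 TGTTTA and none of the other motifs. TGTTTA was present in 9.16% of 35116 RefSeq promoter windows of that length. The inner window of 250 bases held 1 CCAAT and none of the others, and CCAAT was present in 32.0% of windows of that length. CANNTG, which neither window held, was present in 54.3% of the windows of 198 bases and 61.8% of the windows of 250 bases.

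Levels of different genes were compared as TPM, a read count corrected for transcript length and brought to the same total in every library. Without DOX, DDC stood at 37.5 ± 7.0 TPM (mean ± SD, n = 3), followed by MAOA at 4.23 ± 0.714 TPM. These 2 genes did not overlap each other or any lower gene. SLC6A4 at 0.343 ± 0.0793 TPM and SLC18A1 at 0.285 ± 0.0852 TPM overlapped, and TPH1 followed at 0.111 ± 0.0424 TPM below the range of SLC18A1. DBH averaged 0.0132 TPM, TPH2 0.00822 TPM and TH 0.00181 TPM, each overlapping its neighbour in the order, and SLC18A2 and MAOB were listed at 0. H660 cells thus carried abundant transcripts for the shared decarboxylase and for MAOA, and very few or none for either rate-limiting hydroxylase of the neuronal pathways, for VMAT2 or for MAOB.

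**Figure D1:**
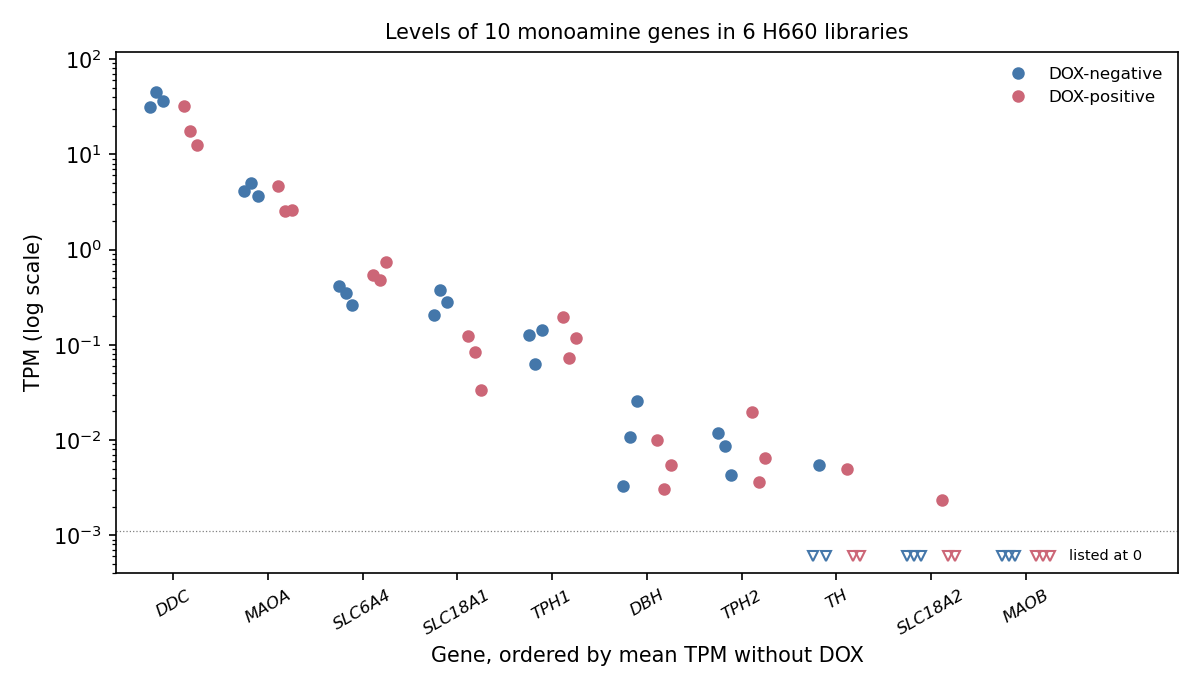
TPM (log axis) of each of the 10 genes in the 3 DOX-negative (blue) and 3 DOX-positive (red) libraries, ordered by mean level without DOX, with open triangles for libraries listed at 0. DDC and MAOA sit above all other members in every library, while SLC18A2 and MAOB are at or near 0.

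With DOX the order was DDC (20.6 ± 10.1 TPM), MAOA (3.27 ± 1.21 TPM), SLC6A4 (0.583 ± 0.135 TPM), TPH1 (0.129 ± 0.0624 TPM) and SLC18A1 (0.0808 ± 0.0455 TPM). SLC18A1 thereby moved from the fourth place to the fifth, with a range that overlapped that of TPH1. DDC held 86.6%, 88.6% and 89.3% of the summed TPM of the 10 genes in DOX-negative libraries 1, 2 and 3. It held 85.2%, 84.4% and 78.3% in DOX-positive libraries 1, 2 and 3, which were all below the DOX-negative range.

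The comparison between groups was made on counts with edgeR's quasi-likelihood test over 17026 genes that passed a low-count filter, and a gene was called at a Benjamini-Hochberg adjusted p under 0.05. Of all 17026 tested genes, 829 (4.87%) were called, and 3597 had an unadjusted p under 0.05. Changes are log2 fold changes of DOX-positive over DOX-negative with their standard error (SE), and abundance within a gene is normalized CPM, a count relative to library size after TMM scaling. The hairpin's target, MUC1, averaged 86.0 ± 5.65 CPM in DOX-negative and 34.6 ± 4.08 CPM in DOX-positive libraries (mean ± SD, n = 3 each), a log2 fold change of -1.32 (SE 0.0962, edgeR adjusted p = 0.000173). In these bulk samples, fewer cells that express a gene and less RNA per cell cannot be told apart.

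Among the members, 5 of 10 passed the filter: SLC18A1, DDC, TPH1, MAOA and SLC6A4. Of the 4 other than SLC18A1, 1 was called by edgeR (SLC6A4, higher with DOX) and 0 were called lower, beside the 4.87% of all tested genes. At an unadjusted edgeR p under 0.05 were 3 of the 4, beside 3597 of all 17026 tested genes. DESeq2 called 3 of the 4 (SLC6A4, DDC and MAOA), beside 8.46% of the genes to which it gave an adjusted p. The normalized CPM of the groups did not overlap for 3 of the 4 (DDC, MAOA and SLC6A4), beside 28.1% of all tested genes. The median log2 fold change of the 4 was -0.15, beside 0.000338 for all tested genes. limma-trend fits on the log2 TPM of all expressed genes, run as an alternative, called 0 genes with a pseudocount of 1 and 0 with a pseudocount of 0.1, MUC1 and SLC6A4 included, with 1248 and 1254 genes at an unadjusted p under 0.05.

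SLC18A1, the vesicular carrier that led to the choice of these genes, lies at chr8:20144855-20183136 on the minus strand. Its counts were 66, 111 and 83 in DOX-negative libraries 1 to 3 and 40, 30 and 13 in DOX-positive libraries 1 to 3. As normalized CPM these were 1.03, 1.79 and 1.74 without DOX and 0.529, 0.546 and 0.176 with DOX. Every DOX-positive library lay below every DOX-negative library, and DOX-positive library 3 was the lowest. The fitted log2 fold change was -1.88 (SE 0.347), which is 3.68-fold lower, and it ran from -2.14 without DOX-positive library 1 to -1.49 without DOX-positive library 3. The level was low throughout, so each value rests on at most 111 counts. SLC18A2, the other vesicular monoamine carrier, had 1 count in DOX-positive library 1 and 0 counts in the other 5 libraries. A count of 0 allows up to 3 counts, which is 0.0405 to 0.063 CPM per library, and no difference in SLC18A2 was detectable at this depth.

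DDC, the decarboxylase shared by serotonin and dopamine synthesis, had 132, 180 and 186 CPM in DOX-negative libraries 1 to 3. It had 113, 92.7 and 55.2 CPM in DOX-positive libraries 1 to 3. The groups did not overlap on this scale, but DOX-positive library 1 was close to DOX-negative library 1. The log2 fold change was -0.93 (SE 0.291) and did not pass the edgeR test (adjusted p = 0.149). It passed in DESeq2, with a log2 fold change of -0.94 (adjusted p = 0.0391). With edgeR it also passed without DOX-positive library 1 (log2 fold change -1.17, adjusted p = 0.0401) and without DOX-positive library 3 (-0.69, adjusted p = 0.0325). As TPM the groups overlapped, because DOX-positive library 1 (32.0 TPM) lay above DOX-negative library 1 (31.3 TPM). FIGNL1, which runs on the same strand and overlaps DDC by 84100 bases in the GENCODE annotation and by 0 bases in RefSeq, had a log2 fold change of 0.08 (SE 0.0987, edgeR adjusted p = 0.686).

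The hydroxylases that start each pathway were scarce. TPH1 had 24, 11 and 25 counts without DOX and 37, 15 and 27 counts with DOX in libraries 1 to 3. The groups overlapped, and the log2 fold change of 0.12 (SE 0.375, edgeR adjusted p = 0.889) was smaller than its error. TPH2 had between 1 and 5 counts per library, TH had at most 1, and DBH, the noradrenaline-forming enzyme, had between 1 and 7. None of these 3 passed the filter, and no fold is given for them. DBH shares its locus with the antisense gene DBH-AS1, which had 184 counts in all against 17 for DBH.

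SLC6A4, the serotonin reuptake transporter (chr17:30194319-30235697, minus strand), moved in the opposite direction to SLC18A1. Its level was 4.95, 3.91 and 3.76 CPM in DOX-negative libraries 1 to 3 and 5.32, 7.13 and 9.05 CPM in DOX-positive libraries 1 to 3. The groups did not overlap in CPM or in TPM, and DOX-negative library 1 and DOX-positive library 1 were nearest to each other. SLC6A4 rose 1.7-fold, a log2 fold change of 0.76 (SE 0.181, edgeR adjusted p = 0.0346). The call was lost without DOX-negative library 2 (log2 fold change 0.71, adjusted p = 0.139) or DOX-negative library 3 (0.69, adjusted p = 0.184). It was also lost without DOX-positive library 2 (0.77, adjusted p = 0.0908) or DOX-positive library 3 (0.55, adjusted p = 0.0984). The ratio of SLC6A4 to SLC18A1 in TPM was 2.06, 0.939 and 0.929 in DOX-negative libraries 1 to 3 and 4.33, 5.63 and 22.1 in DOX-positive libraries 1 to 3. SLC6A4 transcripts therefore exceeded those of SLC18A1 in every DOX-positive library and in 1 of 3 DOX-negative libraries. The ratio divides by SLC18A1, whose fall chose these genes, so its rise with DOX is a description only. The value of 22.1 rests on 13 counts of SLC18A1.

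**Figure D2:**
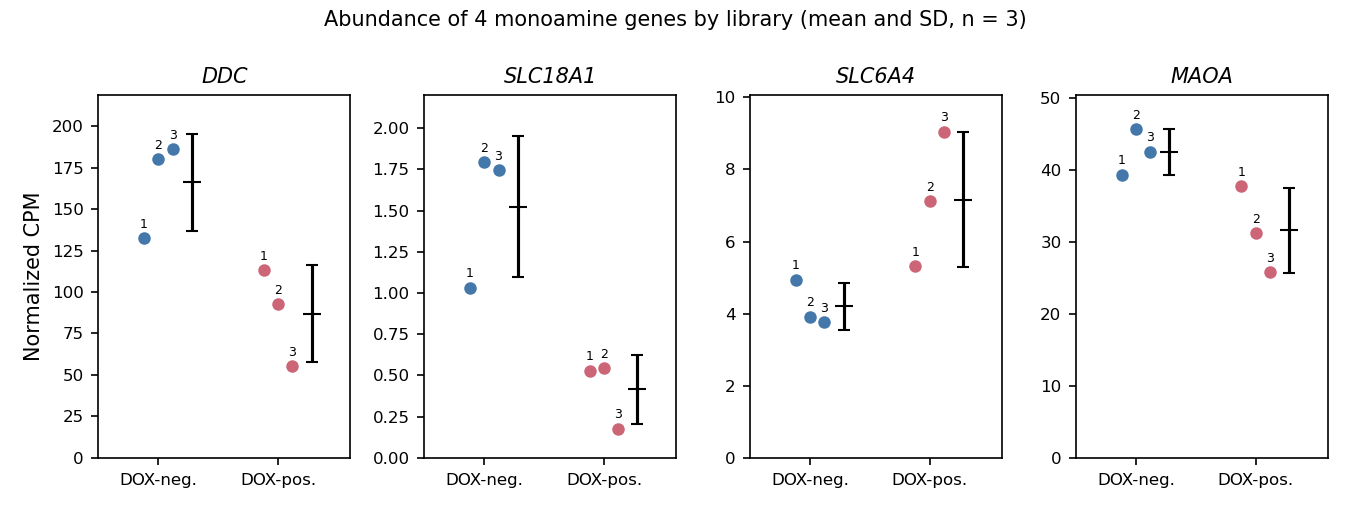
Normalized CPM of DDC, SLC18A1, SLC6A4 and MAOA in each library (points, numbered by replicate) with the group mean and SD (bars, n = 3). DOX-positive points lie below the DOX-negative points for DDC, SLC18A1 and MAOA and above them for SLC6A4, and the gap is narrow for DDC, MAOA and SLC6A4.

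MAOA, the amine oxidase that prefers serotonin and noradrenaline (chrX:43655006-43746817, plus strand), had 39.4, 45.7 and 42.6 CPM in DOX-negative libraries 1 to 3. It had 37.8, 31.3 and 25.9 CPM in DOX-positive libraries 1 to 3. The groups did not overlap in CPM but did overlap in TPM, where DOX-positive library 1 (4.67 TPM) exceeded 2 of the 3 DOX-negative libraries. The log2 fold change was -0.43 (SE 0.122) and did not pass the edgeR test (adjusted p = 0.0666). It passed in DESeq2, with a log2 fold change of -0.43 (adjusted p = 0.0136), and in edgeR without DOX-positive library 1 (-0.58, adjusted p = 0.0153). MAOB, the neighbouring oxidase on chromosome X, had 0 counts in all 6 libraries. The ratio of DDC to MAOA in TPM was 7.69, 9.01 and 9.99 without DOX and 6.85, 6.78 and 4.88 with DOX. Transcripts of the synthetic enzyme thus exceeded those of the degrading enzyme in every library.

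**Figure D3:**
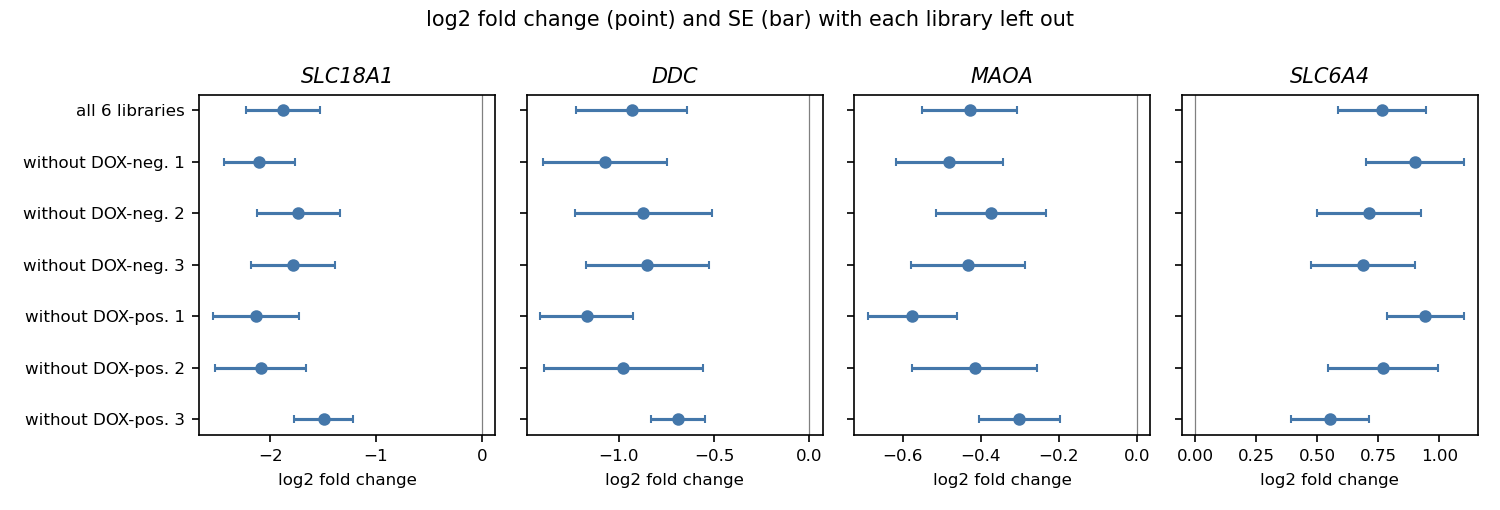
The edgeR log2 fold change (point, DOX-positive over DOX-negative) and SE (bar) of SLC18A1, DDC, MAOA and SLC6A4 with all 6 libraries and with each library left out in turn. The sign of each gene is the same in all 7 fits, and leaving out DOX-positive library 3 gives the value nearest to 0 in each panel.

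Genes that surround the members in amine handling were read from 11 lists of 166 genes, of which 114 passed the filter. edgeR called 8 of the 114 (7.02%, beside 4.87% of all tested genes), 5 higher and 3 lower. DESeq2 called 16 of the 111 to which it gave an adjusted p, 8 higher and 8 lower, beside 8.46% of all such genes. At an unadjusted edgeR p under 0.05 were 28 of the 114, beside 3597 of all 17026 tested genes. HTR3A, the ion channel receptor for serotonin, had 3.90, 3.52 and 2.92 CPM without DOX and 6.30, 7.46 and 7.74 CPM with DOX in libraries 1 to 3. The DOX-positive libraries all lay well above the DOX-negative ones. HTR3A rose 2.07-fold, with a log2 fold change of 1.05 (SE 0.136, edgeR adjusted p = 0.00287), and it kept its call without any 1 library (adjusted p at most 0.0339). It was the only 1 of 6 tested serotonin receptors called (2 at an unadjusted edgeR p under 0.05), and their median log2 fold change was 0.32. ADRA1B, an alpha-1 adrenergic receptor, had 7.48, 8.63 and 8.55 CPM without DOX and 4.78, 5.58 and 3.92 CPM with DOX. It fell by 0.79 on the log2 scale (SE 0.135, edgeR adjusted p = 0.0103). ADRA1B was the 1 called gene among 5 tested adrenergic receptors (3 at an unadjusted edgeR p under 0.05), whose median was -0.08. Neither edgeR nor DESeq2 called any of 3 tested dopamine receptors (median log2 fold change 0.08, 0 at an unadjusted edgeR p under 0.05) or of 3 tested histamine and trace amine receptors (median 0.44, 1 at an unadjusted edgeR p under 0.05).

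Among carriers other than the members, edgeR called 2 of 7 tested, both higher, beside 4.87% of all tested genes. At an unadjusted edgeR p under 0.05 were 4 of the 7, beside 3597 of all 17026 tested genes. DESeq2 called 4 of the 7, of which 1 was lower, beside 8.46% of all genes to which it gave an adjusted p. The median edgeR log2 fold change of the list was -0.10. SLC47A1, which exports organic cations, rose by 0.72 on the log2 scale (SE 0.16, edgeR adjusted p = 0.0265) from 2.10 ± 0.315 to 3.47 ± 0.515 CPM. SLC7A5, the large neutral amino acid carrier that admits tryptophan and L-DOPA, rose by 0.36 (SE 0.0899, edgeR adjusted p = 0.0425) from 155 ± 16.6 to 199 ± 14.4 CPM. Its partner chain SLC3A2 had a log2 fold change of 0.29 and missed the threshold in edgeR (adjusted p = 0.0644), but passed in DESeq2 (0.28, adjusted p = 0.0273) and in edgeR without DOX-positive library 1 (0.35, adjusted p = 0.0346). SLC29A4, the plasma membrane monoamine transporter, was at -0.54 in edgeR (SE 0.204, adjusted p = 0.182) and passed in DESeq2 (-0.54, adjusted p = 0.0187), with 37.4, 48.4 and 41.7 CPM without DOX and 34.9, 33.2 and 19.8 CPM with DOX. The groups of SLC29A4 did not overlap, and DOX-positive library 3 was the lowest. SLC7A8, another amino acid carrier, was at -0.12 (adjusted p = 0.515).

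In the remaining enzymes of amine turnover, edgeR called 1 of 14 tested, beside 4.87% of all tested genes, and DESeq2 called 1. At an unadjusted edgeR p under 0.05 were 2 of the 14. ALDH1A1 was the called gene in both, and the median log2 fold change was 0.01. ALDH1A1, an aldehyde dehydrogenase that also acts on amine-derived aldehydes, rose by 0.44 on the log2 scale (SE 0.108, edgeR adjusted p = 0.0406) from 151 ± 13.8 to 204 ± 32.4 CPM. AKR1A1 (log2 fold change -0.05), the diamine oxidase AOC1 (-0.08) and ALDH3A2 (0.03) were the other abundant genes of this list, and none passed the edgeR test. All 8 genes of the tetrahydrobiopterin cofactor, which the hydroxylases need, passed the filter, and their median log2 fold change was 0.11. Of these 8, edgeR called 0 (2 at an unadjusted p under 0.05, beside 3597 of all 17026 tested genes), and DESeq2 called 0. Abundant genes among them were PCBD1 (log2 fold change 0.16), PTS (-0.15) and GCHFR (0.30). The cofactor genes were thus present in cells with very few TH or TPH2 transcripts.

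edgeR called 0 of 5 tested vesicular carriers of other transmitters (median log2 fold change -0.09, 1 at an unadjusted p under 0.05), and so did DESeq2. Over all 17026 tested genes, edgeR called 4.87%, and 3597 were at an unadjusted edgeR p under 0.05. Of 23 tested subunits of the vacuolar proton pump, which acidifies the vesicles that SLC18A1 fills, edgeR called 0 (median -0.01, 2 at an unadjusted p under 0.05) and DESeq2 called 1, ATP6V1B1, which is named after its value was seen (edgeR log2 fold change -0.74). Of 27 granin and vesicle release genes, edgeR called 1 (7 at an unadjusted p under 0.05). DESeq2 called 4 of the 27, beside 8.46% of all genes to which it gave an adjusted p. SCG5, a secretory granule chaperone, rose by 0.71 on the log2 scale (SE 0.182, edgeR adjusted p = 0.0474) from 1.79 ± 0.271 to 2.93 ± 0.572 CPM, and the list's median was -0.03. Of 13 tested transcription factors of amine-producing cells (median -0.06), edgeR called 2, both lower, beside 4.87% of all tested genes. At an unadjusted edgeR p under 0.05 were 4 of the 13. DESeq2 called 4 of the 13, of which 1 was higher. EN1, a homeobox factor of midbrain dopamine neurons, fell by 0.75 on the log2 scale (SE 0.168, edgeR adjusted p = 0.0271) from 2.19 ± 0.282 to 1.31 ± 0.144 CPM. INSM1, a zinc finger factor of neuroendocrine cells, fell by 0.45 (SE 0.111, edgeR adjusted p = 0.0389) from 112 ± 8.21 to 81.8 ± 13.3 CPM. Without DOX-negative library 2, the calls of all 7 pathway genes other than HTR3A were lost (adjusted p from 0.0527 for ADRA1B to 0.191 for SCG5). Without DOX-negative library 3 the same 7 were lost (from 0.0749 for EN1 to 0.2 for SLC7A5), and without DOX-positive library 3 all but ADRA1B were lost again (from 0.0728 for INSM1 to 0.124 for SCG5). Without DOX-positive library 2 the calls of ALDH1A1, SLC7A5, INSM1 and SCG5 were lost (0.0699 to 0.0951), and without DOX-negative library 1 those of EN1 (0.0813) and SCG5 (0.0535). Without scaling factors the calls of ALDH1A1, SLC7A5, INSM1 and SCG5 were lost as well, which left 4 of 8.

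**Figure D4:**
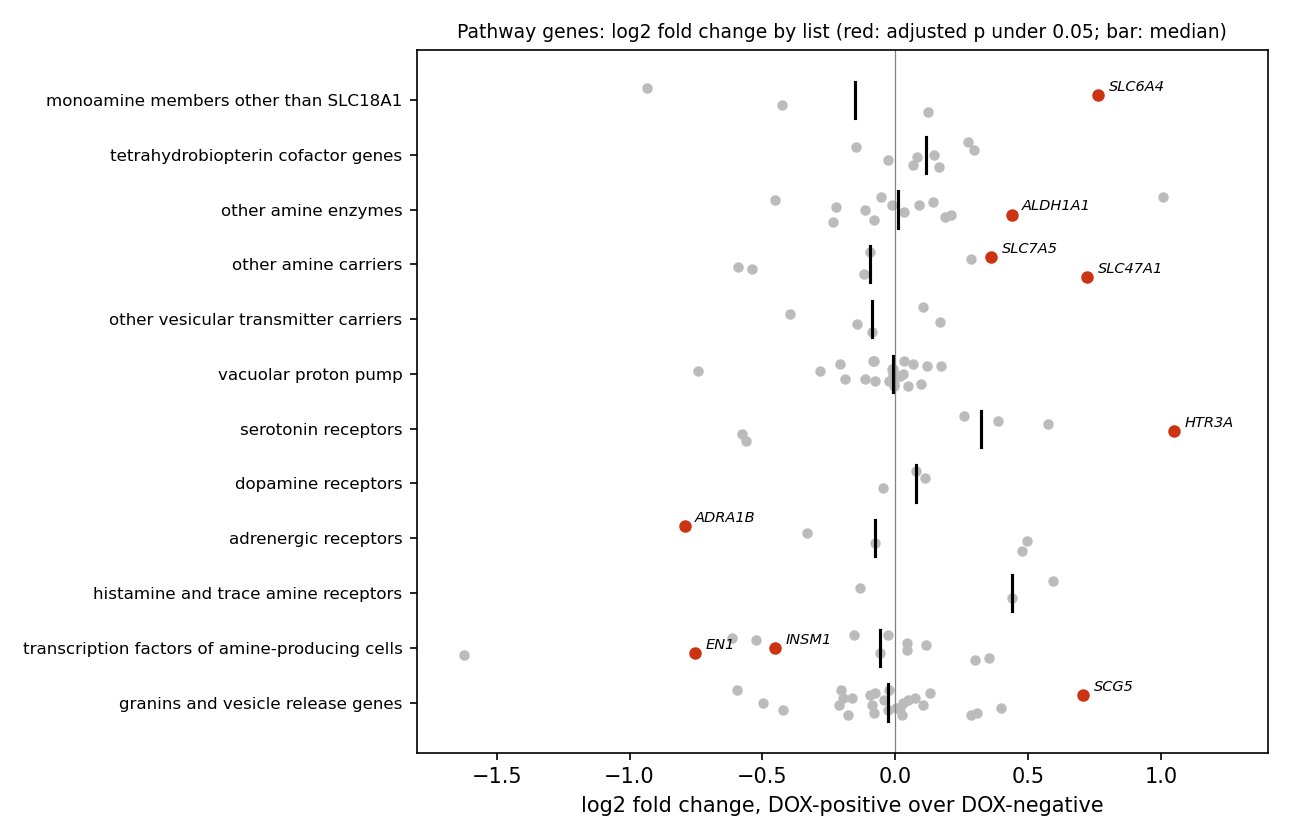
The edgeR log2 fold change (DOX-positive over DOX-negative) of each tested gene of the 11 lists and of the members other than SLC18A1, with called genes in red and named, and the median of each list as a bar. The 9 red points, SLC6A4 and 8 pathway genes, are spread over 7 of the 12 rows and lie on both sides of 0.

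The genes whose log2 CPM was most like that of SLC18A1 across the 6 libraries, among 14586 genes whose counts averaged 50 or more, were PRLHR (Pearson r = 0.998), GAS6 (0.998), SLC15A4 (0.997), SLCO3A1 (0.997) and LENG8-AS1 (0.997). These correlations are a description over 6 libraries that share the 2 groups. GAS6, which encodes a ligand of TAM receptor kinases, had 297, 357 and 360 CPM without DOX and 204, 211 and 128 CPM with DOX. As for SLC18A1, DOX-negative library 1 and DOX-positive library 3 were the lowest of their groups. GAS6 was picked for its likeness to SLC18A1 in these libraries, so the shared order follows from the choice. The log2 fold changes of the 5 ran from -0.90 for GAS6 to -0.11 for SLC15A4, smaller in size than that of SLC18A1. Of the 3 genes on either side of SLC18A1 on chromosome 8, CSGALNACT1 averaged 0.7 counts and was not tested. Of the other 5, 2 were at an unadjusted edgeR p under 0.05, beside 3597 of all 17026 tested genes. edgeR called 0 of the 5, beside 4.87% of all tested genes, while DESeq2 called GFRA2. Their edgeR log2 fold changes were -0.04 for INTS10, 0.25 for LPL, -0.08 for ATP6V1B2 (a vacuolar proton pump subunit), 0.10 for LZTS1 and -0.52 for GFRA2 (SE 0.142, adjusted p = 0.057). GFRA2 passed in DESeq2 (-0.53, adjusted p = 0.0125) and in edgeR without DOX-positive library 1 (-0.62, adjusted p = 0.0436), and LPL passed in edgeR without DOX-positive library 2 (0.30, adjusted p = 0.0282).

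Total counts were 47620696 to 74061121 per library, and TMM factors were 0.967 to 1.03. RN7SK, an RNA without a poly(A) tail, held 21.2% to 27.1% of the TPM, and its part in the overlap of DDC and MAOA on the TPM scale was not tested. The neuroendocrine marker INSM1 was at 19.3 to 25.9 TPM without DOX and 13.2 to 22.1 TPM with DOX, and NCAM1 was at 10.6 to 15.0 TPM without DOX and 7.48 to 12.1 TPM with DOX, and both were called lower with DOX. Luminal prostate markers summed to at most 0.584 TPM, with KLK3 at 0 in all libraries. The marker list of mast cells and platelets, other amine-storing cells, summed to 18.9 to 24.0 TPM without DOX and 12.5 to 22.3 TPM with DOX. Almost all of this was KIT, called lower at a log2 fold change of -0.33. TPSAB1 and PPBP were at 0 throughout and CPA3 and PF4 were near 0, so the sum does not show that such cells were present in these cultures of a cell line. Endothelial markers summed to 0.321 to 0.512 TPM without DOX and 0.717 to 0.794 TPM with DOX, with VWF and CDH5 called higher and PECAM1 near 0. Leukocyte markers summed to 0.705 to 1.0 TPM without DOX and 1.02 to 1.32 TPM with DOX, with CD68 called higher and CD3E at 0. Fibroblast markers overlapped (2.41 to 3.47 against 2.46 to 3.64 TPM), with COL1A1 and LUM called higher, COL1A2 at a log2 fold change of -0.71 that was not called (edgeR adjusted p = 0.203) and COL3A1 at 0, and epithelial markers were 532 to 734 against 629 to 832 TPM. The part of these markers in the members' values was not tested.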

How the data were processed

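Total RNA from 3 DOX-negative and 3 DOX-positive cultures of H660/tet-MUC1shRNA cells was made into stranded mRNA libraries, per the labels. Raw counts (28008 symbols) and TPM, that is counts divided by gene length and brought to a common total (25673 symbols), were deposited by the authors. The submitters' processing notes name STAR, DESeq2 and GRCh38/hg38. The strand setting and the annotation are not given in the sources used here. The members and all gene lists were chosen with earlier results of these data known. Groups and replicate numbers came from the sample titles.

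Counts were filtered with filterByExpr, scaled with TMM factors and tested with edgeR 4.0.16 (R 4.3.3; glmQLFit with robust estimation, glmQLFTest, no covariate), with Benjamini-Hochberg adjustment over all 17026 genes tested. SE were derived from the F statistic. The code was tested on simulated counts. No libraries of a group were duplicates (chi-square per degree of freedom 15.6 to 95.1). Normalized CPM use the TMM factors. Alternatives were other scaling and filters, DESeq2 1.42.0, limma 3.58.1 (limma-trend) on log2 TPM after adding 1 or 0.1, once limited to genes whose TPM averaged at least 1, a replicate block, and leaving out each library. Named genes were all members, from each list the called genes (up to 4 by size), up to 4 of the highest TPM in the cofactor, enzyme and carrier lists, 3 neighbours on either side of SLC18A1, and the 5 genes most like it. Marker genes are mostly described as groups, and 1 cofactor gene and 1 marker gene that this rule covers are not reported here. Coordinates, promoter windows and neighbours came from RefSeq tables (GRCh38.p14), which matched all 10 members by symbol and held a promoter for 8. The floors for counts of 0 cover counting error only, while SD and SE also take in the spread between libraries.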

Additional observations from a re-analysis of the deposited data

How the results depend on the processing

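DESeq2 called 1354 genes, 3 members other than SLC18A1 and 16 pathway genes, against 829, 1 and 8 in edgeR, with DDC at a log2 fold change of -0.94 and MAOA at -0.43. The limma-trend fits on TPM called 0 genes at a pseudocount of 1 (1248 at an unadjusted p under 0.05), 0 at a pseudocount of 0.1 (1254) and 35 when limited to genes with a mean TPM of at least 1. These 3 fits called 0 members and 0, 0 and 1 pathway genes. With pseudocounts of 1 and 0.1, SLC18A1 was at -0.25 and -1.10 and SLC6A4 at 0.24 and 0.62, because a pseudocount shrinks low genes. SLC6A4, SLC18A1 and TPH1 were not among the genes with a mean TPM of at least 1. Without scaling factors 4 pathway genes were called. Same-numbered libraries did not deviate from their group means in the same direction (r = -0.54, 0.019 and -0.11 over 14587 genes), so the numbers are not treated as pairs. The r of -0.54 means that the 2 libraries numbered 1 deviated in opposite directions, and its cause was not tested. With a replicate block 998 genes were called, of which 750 were also called without it, together with 2 members (MAOA at -0.44, adjusted p = 0.0209, and SLC6A4 at 0.74, adjusted p = 0.0325) and 11 pathway genes. Leaving out 1 library at a time gave 58 to 1035 genes (127 without DOX-negative library 2, 58 without DOX-negative library 3 and 375 without DOX-positive library 3), 0 to 3 members and 1 to 15 pathway genes. It gave log2 fold changes of -2.14 to -1.49 for SLC18A1, -1.17 to -0.69 for DDC, -0.58 to -0.30 for MAOA and 0.55 to 0.94 for SLC6A4. The order by level without DOX kept 8 of 10 ranks without any 1 DOX-negative library. The sign turned for TPH1 (range -0.22 to 0.45, with -0.22 without DOX-negative library 2 and -0.12 without DOX-positive library 1), AOC1 (range -0.15 to 0.017, above 0 without DOX-negative library 2 and, at 0.0020, without DOX-positive library 3) and INTS10 (range -0.077 to 0.0052, above 0 without DOX-positive library 2), none of which was called. Other than the effect of the pseudocount, the cause was not tested. Depth limits SLC18A1, TPH1 and the members below them, whose counts are few in every library.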
